A study of Mus musculus with 8 samples.

Results

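The 10 genes Acta2, Tagln, Cnn1, Cnn2, Myl9, Tpm1, Tpm2, Cald1, Lmod1 and Synpo2 encode contractile proteins of the smooth muscle type, which fibroblasts also make when they take on the myofibroblast state. They were taken by symbol from the deposited count table, where all 10 were found among 24982 genes. RNA of fibroblasts grown from tail tendon of C57Bl/6 mice was sequenced in bulk. There were 4 Scx-deleted libraries, numbered 2, 3, 4 and 5 (genotype Scx- in the labels), and 4 Scx-positive libraries, numbered 2, 3, 5 and 6 (genotype Scx+). Both groups had received 4-hydroxytamoxifen (4HT), so the drug does not set them apart. How Scx was deleted, the age of the mice and the animal or culture behind each library were not given in the sources used here. Gene counts ranged from 17343228 to 22178439 in Scx-deleted libraries and from 18408278 to 25180790 in Scx-positive libraries.

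Scleraxis, the product of Scx, is a bHLH transcription factor that binds E-boxes and marks tendon cells. In smooth muscle and in myofibroblasts, alpha smooth muscle actin forms stress fibres with nonmuscle or smooth muscle myosin, and calponins, caldesmon, transgelin and tropomyosins bind along the filaments. These genes are classic targets of serum response factor (SRF), which binds CArG boxes with its partners myocardin or the myocardin-related factors (MRTFs). RhoA signalling and TGF-beta are known inputs to this programme, and fibroblasts grown on stiff plastic are known to express much of it.

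Promoters are shown for 4 members because they cover the range of results: Acta2, the most abundant per length, Cnn1 and Synpo2, the members that passed the test, and Cnn2, the close relative of Cnn1 that did not. Sequences run 5′ to 3′ on the gene's strand, from 250 bases before to 50 bases after the annotated start (RefSeq, GRCm38.p6). Capitals mark E-boxes (CANNTG) and matches to the CArG box with at most 1 mismatch, searched on both strands. In the windows of the members no E-box overlapped a CArG match, and exact CArG boxes are counted among the matches with at most 1 mismatch. The windows are chr19:34255324-34255623 (minus strand) for Acta2, chr9:22099003-22099302 (plus) for Cnn1, chr10:79988350-79988649 (plus) for Cnn2 and chr3:123236100-123236399 (minus) for Synpo2.
Acta2: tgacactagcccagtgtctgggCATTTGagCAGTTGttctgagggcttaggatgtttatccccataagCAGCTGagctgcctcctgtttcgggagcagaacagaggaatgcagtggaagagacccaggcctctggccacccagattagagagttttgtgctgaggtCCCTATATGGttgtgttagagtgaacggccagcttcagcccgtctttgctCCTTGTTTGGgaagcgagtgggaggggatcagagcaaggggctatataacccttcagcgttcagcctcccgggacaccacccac
Cnn1: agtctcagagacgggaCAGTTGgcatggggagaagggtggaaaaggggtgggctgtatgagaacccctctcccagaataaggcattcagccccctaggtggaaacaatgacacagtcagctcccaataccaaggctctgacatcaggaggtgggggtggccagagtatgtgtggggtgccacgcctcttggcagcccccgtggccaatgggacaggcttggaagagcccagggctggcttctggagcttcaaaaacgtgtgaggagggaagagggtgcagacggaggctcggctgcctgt
Cnn2: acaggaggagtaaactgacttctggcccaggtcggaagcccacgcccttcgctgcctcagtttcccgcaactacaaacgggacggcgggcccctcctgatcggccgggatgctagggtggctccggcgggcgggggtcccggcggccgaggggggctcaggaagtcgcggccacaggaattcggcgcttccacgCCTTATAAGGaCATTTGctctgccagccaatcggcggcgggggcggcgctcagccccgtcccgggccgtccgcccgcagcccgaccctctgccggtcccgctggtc
Synpo2: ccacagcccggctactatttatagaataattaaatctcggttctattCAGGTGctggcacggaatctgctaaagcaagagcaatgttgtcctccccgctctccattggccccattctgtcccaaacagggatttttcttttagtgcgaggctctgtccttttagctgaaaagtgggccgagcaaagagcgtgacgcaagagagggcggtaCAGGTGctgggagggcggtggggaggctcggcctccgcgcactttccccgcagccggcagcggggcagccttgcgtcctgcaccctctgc

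The Acta2 window held 2 CArG matches with 1 mismatch, starting 84 and 34 bases before the start, and 3 E-boxes. The Cnn2 window held an exact CArG box 56 bases before the start and an E-box 45 bases before the start. The Synpo2 window had no CArG match and 2 copies of the same E-box, CAGGTG, at 203 and 40 bases before the start, and the Cnn1 window had 1 E-box and no CArG match. RefSeq windows were found for 9 of the 10 members, with 2 windows for Cald1 and none for Tagln. An exact CArG box lay in 2 of these 10 member windows (Cnn2 and Myl9), against 1.63% of all 32851 mouse promoter windows. A CArG match with at most 1 mismatch lay in 6 of 10 member windows, against 21.11%. The MCAT motif CATTCC, known as the site of TEAD factors, lay in 4 of 10, against 14.66%. E-boxes lay in all 10 member windows, but also in 72.31% of all windows. A match describes the letters in these windows and no binding was measured.

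Loss of Scx was visible in every Scx-deleted library. Scx had 3, 1, 2 and 3 counts in Scx-deleted libraries 2, 3, 4 and 5, against 177, 132, 252 and 156 counts in Scx-positive libraries 2, 3, 5 and 6. Of 8 tendon fibroblast markers, with the deleted gene Scx among them, 7 fell in Scx-deleted cells and Mkx did not pass. Of all genes tested, 14.5% were called lower. The sum of the 8 was 5786 to 6463 CPM in Scx-deleted and 7727 to 9849 CPM in Scx-positive libraries. Nearly all of it was Col1a1 (means of 2702 CPM in Scx-deleted and 3921 CPM in Scx-positive libraries), Col1a2 (2569 and 3394 CPM) and Thbs4 (650 and 971 CPM). Scx-positive 5 stood apart from its group: in a chi-square comparison of counts over genes it gave 11.5, 13.3 and 12.2 per degree of freedom against the other Scx-positive libraries, while all other pairs within a group gave 2.42 to 4.52. The results for the contractile genes that passed are therefore also given without it.

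Most of the contractile genes differed little between Scx-deleted and Scx-positive cells. By the edgeR quasi-likelihood test, Benjamini-Hochberg adjusted over 13125 genes, Synpo2 and Cnn1 fell and the other 8 did not pass the threshold of 0.05. That made 2 of 10 lower and 0 higher, where 28.5% of all genes tested were called in either direction, 14.5% lower and 14% higher, so the share of members called lay near that of all genes. All 10 members had passed the filter on low counts. The log2 changes, Scx-deleted over Scx-positive, were below 0 for 9 of the 10, against 51.2% of all genes, and their median was -0.09, against -0.01 for all genes. After group means were removed, 41 of 45 pairs of members had correlations above 0 across libraries, so the 9 are not separate observations. Groups did not overlap for 1 of 10 members, Synpo2, against 29.1% of all genes in either direction and 14.3% with Scx-deleted lower. In bulk RNA, fewer cells that express a gene and less RNA per cell cannot be told apart.

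**Figure D1:**
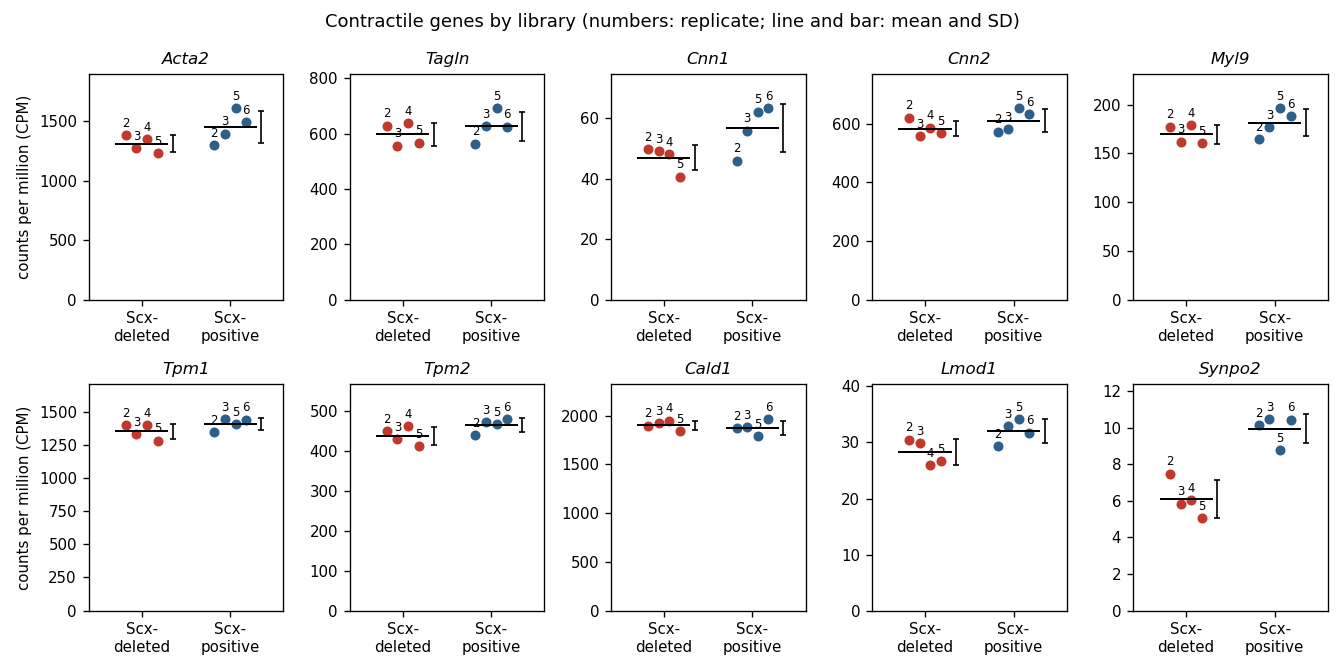
CPM (counts scaled to library size, linear axes from 0) of the 10 contractile genes in each library, with Scx-deleted libraries left of Scx-positive ones; points carry the replicate number, lines are group means and bars SD (n = 4 each). Synpo2 is the only gene of the 10 whose groups do not overlap, at 5.04 to 7.49 CPM in Scx-deleted libraries and 8.77 to 10.5 CPM in Scx-positive libraries.

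The actin Acta2 (chr19:34241090-34255590, GRCm38, minus strand) encodes alpha smooth muscle actin, the usual marker of the myofibroblast. Its level in CPM, counts scaled to library size with TMM factors, was 1382, 1273, 1348 and 1228 in Scx-deleted libraries 2, 3, 4 and 5, against 1297, 1393, 1608 and 1489.6 in Scx-positive libraries 2, 3, 5 and 6. Scx-positive 3, 5 and 6 lay above every Scx-deleted library, and Scx-positive 2 lay within the Scx-deleted range, so the groups overlapped. The means were 1308 ± 70.2 CPM in Scx-deleted and 1447 ± 133 CPM in Scx-positive libraries (SD, n = 4 each). The log2 change was -0.15 ± 0.06 (SE), with a 95% interval of -0.27 to -0.02 and an adjusted p of 0.0818 by edgeR with Benjamini-Hochberg adjustment, so Acta2 did not pass. Acta2 is close in sequence to the other muscle actins, Acta1, Actc1 and Actg2, and the counter was not given, so reads shared between them could have been split or dropped.

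Among the proteins that bind actin filaments, the calponin Cnn1 and the transgelin Tagln gave different results. Cnn1 (chr9:22099216-22109630), basic calponin, is known to bind actin and to inhibit myosin ATPase. It had 49.7, 49.0, 48.1 and 40.7 CPM in Scx-deleted libraries 2, 3, 4 and 5, against 45.9, 55.8, 62.1 and 63.2 CPM in Scx-positive libraries 2, 3, 5 and 6. Scx-positive 2 lay below 3 of the 4 Scx-deleted libraries, and the other Scx-positive libraries lay above them all. The means were 46.8 ± 4.17 CPM in Scx-deleted and 56.7 ± 7.96 CPM in Scx-positive libraries (SD, n = 4 each), and Cnn1 fell by 0.28 ± 0.09 on the log2 scale (SE; 95% interval of -0.47 to -0.09), with an adjusted p of 0.0281 by edgeR with Benjamini-Hochberg adjustment. That call was lost without Scx-deleted 4, Scx-deleted 5 or Scx-positive 6, with edgeR adjusted p of 0.0536, 0.109 and 0.104, within a range of 0.00189 to 0.109 over all alternatives. Without Scx-positive 5 the log2 change was -0.23, with an edgeR adjusted p of 0.0308.

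Tagln (chr9:45929619-45936058, minus strand), also called SM22 alpha, is an early marker of smooth muscle differentiation. It had 629, 556, 638 and 567 CPM in Scx-deleted libraries 2, 3, 4 and 5, against 564, 627, 692 and 625 CPM in Scx-positive libraries 2, 3, 5 and 6. The groups were interleaved, and Scx-positive 5 was the only library above every Scx-deleted one. The log2 change of -0.07 ± 0.06 (SE) did not pass (adjusted p of 0.427 by edgeR with Benjamini-Hochberg adjustment), and its 95% interval was -0.20 to 0.06. In the annotation, 1241 bases of Tagln exons, 62.4% of their length, overlap the antisense gene Gm48529, and 108 bases (5.4%) overlap Pcsk7 on the opposite strand. Since the use of strand was not given, reads of these genes cannot be told apart from those of Tagln, and its value is uncertain.

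Cnn2 (chr10:79988584-79996062), the more widely expressed calponin, did not pass. It had 620.4, 559, 587 and 569 CPM in Scx-deleted libraries 2, 3, 4 and 5, against 573, 582, 653 and 633 CPM in Scx-positive libraries 2, 3, 5 and 6. Scx-deleted 2 lay above Scx-positive 2 and 3, so the groups overlapped, and the log2 change was -0.06 ± 0.05 (SE; adjusted p of 0.366 by edgeR with Benjamini-Hochberg adjustment). Cald1 (chr6:34598500-34775473), caldesmon, which is known to restrain actomyosin until it is released by calcium-calmodulin or phosphorylation, was the only member above 0. It had 1898, 1924, 1949 and 1842 CPM in Scx-deleted libraries 2, 3, 4 and 5, against 1873, 1881, 1789 and 1968 CPM in Scx-positive libraries 2, 3, 5 and 6. The libraries of both groups were mixed, with the highest and the lowest value both in Scx-positive cells. The log2 change was 0.02 ± 0.04 (SE) with a 95% interval of -0.07 to 0.11, and it turned to -0.005 with upper-quartile scaling.

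The myosin light chain and the tropomyosins had log2 changes between -0.10 and -0.06, and none passed. Myl9 (chr2:156775420-156781658) encodes a regulatory light chain of smooth muscle and nonmuscle myosin, whose phosphorylation turns on contraction. It had 177, 162, 179 and 160.4 CPM in Scx-deleted libraries 2, 3, 4 and 5, against 165, 177, 197 and 189 CPM in Scx-positive libraries 2, 3, 5 and 6. Scx-positive 5 and 6 lay above every Scx-deleted library and the other Scx-positive libraries did not, with a log2 change of -0.10 ± 0.06 (SE; adjusted p of 0.207 by edgeR with Benjamini-Hochberg adjustment). Tropomyosins lie along the actin filament and set which myosins and binding proteins reach it. Tpm1 (chr9:67022590-67049406, minus strand) had 1398, 1332, 1399 and 1283 CPM in Scx-deleted libraries 2, 3, 4 and 5, against 1348, 1446, 1408 and 1439.7 CPM in Scx-positive libraries 2, 3, 5 and 6. Tpm2 (chr4:43514711-43523765, minus strand) had 449, 429, 462 and 412 CPM in Scx-deleted libraries 2, 3, 4 and 5, against 440.4, 472, 467 and 481 CPM in Scx-positive libraries 2, 3, 5 and 6. For both tropomyosins, Scx-positive 3, 5 and 6 lay above every Scx-deleted library and Scx-positive 2 lay among them. Their log2 changes were -0.06 ± 0.04 for Tpm1 and -0.09 ± 0.04 for Tpm2 (SE), with adjusted p of 0.322 and 0.170 by edgeR with Benjamini-Hochberg adjustment. Counts per gene add up all tropomyosin isoforms, so a shift between muscle and nonmuscle isoforms of Tpm1 or Tpm2 would not show here, and reads shared among tropomyosin genes could have been split.

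Lmod1 and Synpo2, the least abundant members, had the third largest and the largest changes. Lmod1 (chr1:135324807-135368065), leiomodin, is known to nucleate actin filaments in smooth muscle. It had 30.5, 29.9, 26.0 and 26.7 CPM in Scx-deleted libraries 2, 3, 4 and 5, against 29.4, 33.0, 34.2 and 31.7 CPM in Scx-positive libraries 2, 3, 5 and 6. Scx-positive 2 lay below Scx-deleted 2 and 3, and the other Scx-positive libraries lay above all Scx-deleted ones. The log2 change of -0.18 ± 0.07 (SE; 95% interval of -0.32 to -0.04) did not pass, with an adjusted p of 0.0560 by edgeR with Benjamini-Hochberg adjustment.

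Synpo2 (chr3:123076519-123236149, minus strand) encodes synaptopodin 2, also called myopodin, a protein that binds actin and alpha-actinin at Z-discs of striated muscle and on stress fibres. It had 148, 125, 104 and 112 counts in Scx-deleted libraries 2, 3, 4 and 5, against 234, 196, 218 and 239 counts in Scx-positive libraries 2, 3, 5 and 6. Scaled for depth these were 7.49, 5.85, 6.04 and 5.04 CPM in Scx-deleted libraries and 10.1, 10.5, 8.77 and 10.4 CPM in Scx-positive libraries, in the same order. Every Scx-deleted library lay below every Scx-positive one, with Scx-deleted 2 the highest of its group and Scx-positive 5 the lowest of its own. The means were 6.10 ± 1.02 CPM in Scx-deleted and 9.96 ± 0.806 CPM in Scx-positive libraries (SD, n = 4 each). Synpo2 fell by 0.71 ± 0.11 on the log2 scale (SE; 95% interval of -0.95 to -0.47), a change of -38.8%, with an adjusted p of 0.000223 by edgeR with Benjamini-Hochberg adjustment. Without Scx-positive 5 the log2 change was -0.76 (edgeR adjusted p of 9.48e-06). Synpo2 passed in 18 of 18 alternatives, with log2 changes between -0.82 and -0.62 and adjusted p of 6.12e-07 to 0.00126 by the tool each alternative names.

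Per kilobase of annotated exon, the members spanned a wide range of levels and their order was nearly the same with and without Scx. Acta2 was highest, at 596 ± 32.0 CPM per kilobase in Scx-deleted and 659 ± 60.6 in Scx-positive libraries (SD, n = 4 each). Tagln followed at 301 ± 21.1 in Scx-deleted and 315 ± 26.3 in Scx-positive libraries, then Cnn2 at 237 ± 11.0 in Scx-deleted and 248 ± 15.9 in Scx-positive libraries. Tpm1 had 209 ± 8.70 in Scx-deleted and 217 ± 6.94 in Scx-positive libraries. The library ranges of these 4 neighbours did not overlap in either group. Cald1, Tpm2 and Myl9 formed a cluster with means of 146 to 158 CPM per kilobase in Scx-deleted and 156 to 160 in Scx-positive libraries, and their ranges overlapped, so their order was not resolved. Cnn1, Lmod1 and Synpo2 lay far below the others. Cnn1 had 17.1 ± 1.52 in Scx-deleted and 20.7 ± 2.91 in Scx-positive libraries. Lmod1 had 7.16 ± 0.573 in Scx-deleted and 8.12 ± 0.524 in Scx-positive libraries, and Synpo2 had 0.466 ± 0.0781 in Scx-deleted and 0.761 ± 0.0616 in Scx-positive libraries. The length counts every annotated exon, 13.09 kilobases for Synpo2 and 12.04 for Cald1, so the level of a gene that uses few of its exons is understated.

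Added up, the 10 genes took 0.641% ± 0.0221 of gene counts in Scx-deleted and 0.673% ± 0.0206 in Scx-positive libraries (SD, n = 4 each), with overlapping ranges of 0.615% to 0.660% in Scx-deleted and 0.643% to 0.689% in Scx-positive libraries.

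Libraries of one group differed among themselves in the contractile genes. The coefficient of variation of the members had a median of 5.58% in Scx-deleted and 7.05% in Scx-positive libraries, against 4.15% in Scx-deleted and 5.97% in Scx-positive libraries for the 9494 genes that averaged 10 CPM or more. It was highest for Synpo2 in Scx-deleted libraries, at 16.7%, and for Cnn1 in Scx-positive libraries, at 14.0%, and lowest for Cald1 in Scx-deleted libraries, at 2.43%. Much of the spread was shared by whole libraries. Scx-deleted 5 lay below its group mean for all 10 members and was the lowest of its group for 7. Scx-positive 2 lay below its group mean for 9 and was the lowest for 8. Scx-deleted 2 lay above for 9 and Scx-positive 6 for 8. The median deviation of the members was -0.08 (log2) in Scx-deleted 5 and -0.11 in Scx-positive 2. Over all genes tested it was 0 in each library, which scaling and the removal of group means bring about by themselves.

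**Figure D2:**
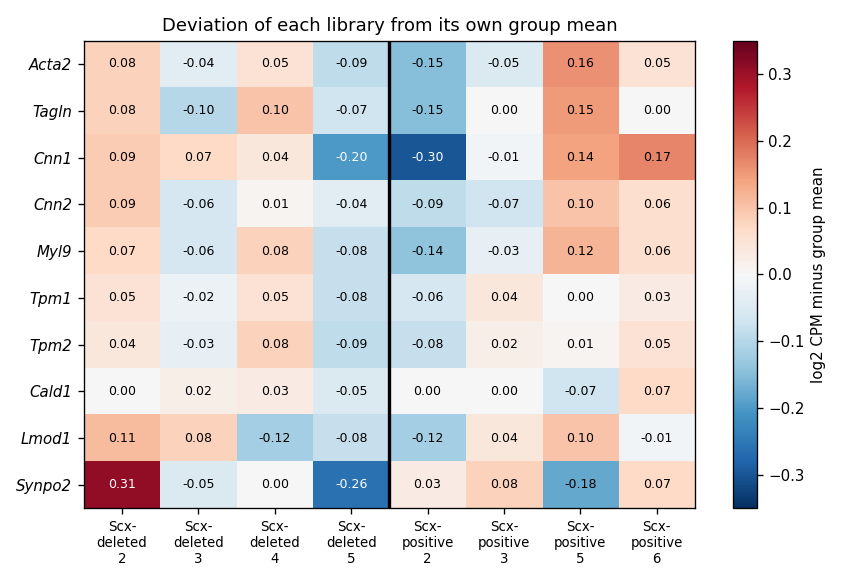
Log2 CPM of each contractile gene minus the mean of its own group (colour and printed value), with the 4 Scx-deleted libraries left of the 4 Scx-positive ones. Scx-deleted 5 is below its group mean for all 10 genes and Scx-positive 2 for 9, while Synpo2 has its extremes at 0.31 in Scx-deleted 2 and -0.26 in Scx-deleted 5.

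The low values in Scx-positive 2 bore on how many members separated. With that library left out, a choice made after seeing the values, 6 of 10 members had every Scx-deleted library below every Scx-positive one (Acta2, Cnn1, Tpm1, Tpm2, Lmod1 and Synpo2), against 15.5% of all genes. With each of the other 7 libraries left out in turn the number was 1, Synpo2. By edgeR with Benjamini-Hochberg adjustment, 4 members were called lower without Scx-positive 2, with Acta2 (adjusted p of 0.0243) and Lmod1 (0.0373) added to Cnn1 and Synpo2, where 11.5% of all genes were called lower in that fit. The adjusted p had ranges of 0.0157 to 0.237 for Acta2 and 0.0157 to 0.180 for Lmod1 over all alternatives. Nothing in the labels sets Scx-positive 2 apart from its group.

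The members did not all move together from library to library. After each group's mean was taken out, Acta2, Tagln, Cnn2 and Myl9 had pairwise correlations of 0.82 to 0.97 across the 8 libraries, with a median of 0.92 over 6 pairs. This set of genes was not planned in advance. Cnn1, outside it, had 0.86 with Acta2 and 0.84 with Myl9, but 0.70 with Tagln and 0.72 with Cnn2. Tpm1 and Tpm2 had a correlation of 0.97 and each was the other's nearest among 9494 genes. Over all 45 pairs of members the values ran from -0.21 to 0.97 with a median of 0.57, and 41 were above 0. Cald1 (nearest member Synpo2, 0.53), Synpo2 (nearest Tpm1, 0.65) and Lmod1 (nearest Cnn1, 0.66) followed the rest least. The points share libraries, depth and scaling, and 8 values with 2 means removed leave many genes with high correlations, so these are descriptions. The genes most like Acta2 by this measure were Sec13 (0.98), a subunit of the COPII coat, Fam83d (0.98), a mitotic spindle protein, and Anxa2 (0.97), a membrane-binding annexin, with Myl9 at rank 5 as its nearest member. Those most like Tagln were Cttn (0.99), the actin-branching regulator cortactin, Acaa2 (0.98), a mitochondrial thiolase, and C1qtnf6 (0.97), a secreted protein of the C1q and TNF family.

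The authors' deposited table called more of these genes. Of the 10 members, 8 were lower in the authors' deposited table at an adjusted p under 0.05 and 0 higher, where 29.2% of its 14511 genes were called, 14.1% lower and 15.1% higher. In the authors' deposited table Acta2 changed by -0.20 (adjusted p of 0.000820), Tpm1 by -0.11 (0.00591), Tpm2 by -0.15 (0.00154), Cnn2 by -0.12 (0.0212), Myl9 by -0.14 (0.0340) and Lmod1 by -0.20 (0.0279) on the log2 scale. The authors' deposited table gave -0.29 (adjusted p of 0.00699) for Cnn1 and -0.68 (6.39e-07) for Synpo2, while Tagln at -0.10 (0.0988) and Cald1 at 0.05 (0.336) did not pass there. The median change of the members in the authors' deposited table was -0.14, against -0.09 in the counts.

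**Figure D3:**
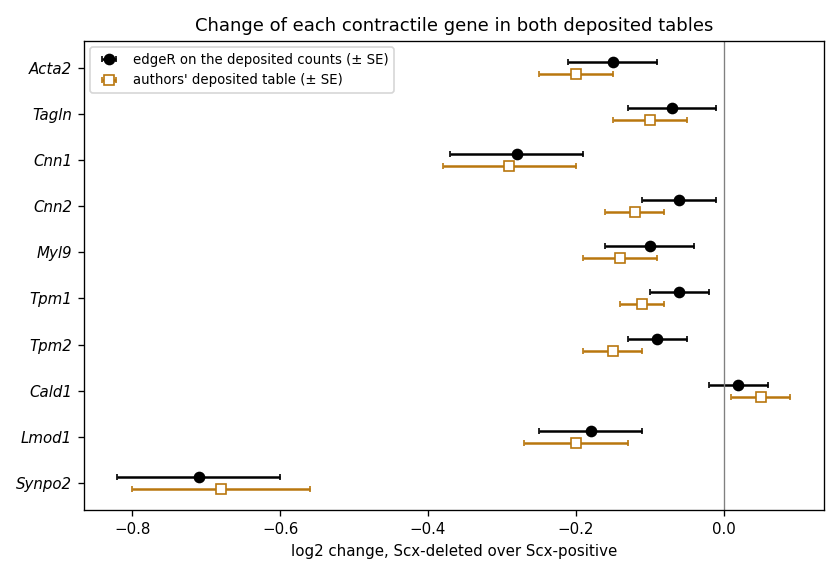
Log2 change of each contractile gene, Scx-deleted over Scx-positive, from edgeR on the deposited counts (filled circles) and from the authors' deposited table (open squares), with bars of 1 standard error. For 8 genes the authors' value lies further below 0 than that from the counts; for Synpo2 it lies nearer to 0 (-0.68 against -0.71) and for Cald1 both lie above 0.

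The normalized means of the authors' deposited table were not a fixed multiple of the deposited counts. In the authors' deposited table the normalized mean was 1.26 times the mean deposited count at the median of 13110 shared genes, but 2.40 times for Acta2, 2.16 for Tpm1, 1.88 for Tagln, 1.80 for Cald1, 1.66 for Tpm2 and 1.65 for Cnn2. The median ratio rose with abundance, but single genes lay far from it. Actg1 had a ratio of 11.1 at a mean count of 11711, and Actn1 had 1.50 at 22220. The median was 1.24 over 8062 genes with a mean count under 1000 and 1.50 over 188 genes with 10000 to 20000. It was 1.80 over 84 genes with at least 20000, which hold Acta2, Tpm1 and Cald1. Over the same genes the slope of the authors' log2 changes on those from the counts was 0.97, 1.15 and 1.24. The less abundant Lmod1 (1.31), Cnn1 (1.30), Myl9 (1.29) and Synpo2 (1.25) had ratios near the median. How either table was counted was not given in the sources used here, and the cause of the difference was not tested.

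**Figure D4:**
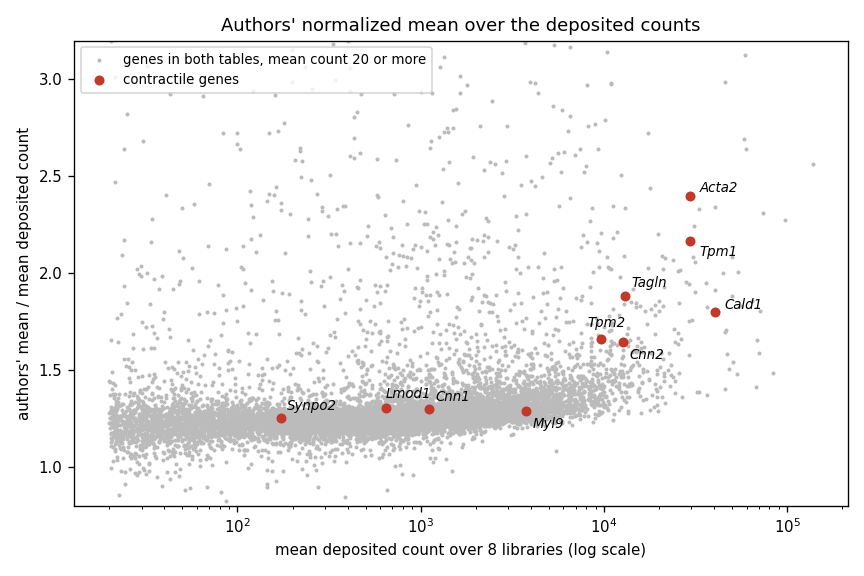
Ratio of the authors' normalized mean to the mean deposited count (linear axis) against the mean deposited count over 8 libraries (log axis). The 12139 genes within the axis have a mean count of at least 20, and 253 more such genes lie outside it. The 10 contractile genes are named. Acta2, Tpm1, Tagln and Cald1 lie between 1.80 and 2.40, and Synpo2, Lmod1, Cnn1 and Myl9 between 1.25 and 1.31.

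Of 17 other genes of the smooth muscle apparatus, 16 were tested, 6 fell and 1 rose. Over all genes tested, 14.5% were called lower and 14% higher. The median log2 change of this list was -0.18, against -0.01 for all genes. The largest fall was that of Synm, which encodes the intermediate filament protein synemin, with 9.99 ± 0.841 CPM in Scx-deleted and 14.9 ± 0.441 CPM in Scx-positive libraries (SD, n = 4 each; log2 change of -0.58, adjusted p of 4.68e-05 by edgeR with Benjamini-Hochberg adjustment). The LIM-domain protein gene Csrp2 had 29.5 ± 1.63 CPM in Scx-deleted and 40.0 ± 3.16 CPM in Scx-positive libraries (log2 change of -0.44). Pdlim7, which encodes a PDZ and LIM protein of stress fibres, fell by 0.20, Filip1l by 0.23, the smoothelin gene Smtn by 0.22 and Csrp1 by 0.17 (log2). Ppp1r12b, which encodes a myosin phosphatase subunit, rose by 0.26. Of the defining genes of smooth muscle cells, Myh11 and Actg2 did not pass. Myh11, smooth muscle myosin, had 42.5 ± 7.19 CPM in Scx-deleted and 53.8 ± 12.7 CPM in Scx-positive libraries (log2 change of -0.34, adjusted p of 0.0825 by edgeR with Benjamini-Hochberg adjustment). Actg2, smooth muscle gamma actin, had 172.5 ± 15.9 CPM in Scx-deleted and 203.7 ± 34.0 CPM in Scx-positive libraries (log2 change of -0.24, adjusted p of 0.0723 by edgeR with Benjamini-Hochberg adjustment).

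Among 19 near relatives of the members, 16 were tested, 4 fell and 0 rose, and Lmod2 had 0 counts in every library. All genes tested had 14.5% called lower and 14% higher. Synpo, the relative of Synpo2 that encodes synaptopodin, had 82.1 ± 3.67 CPM in Scx-deleted and 101 ± 6.81 CPM in Scx-positive libraries (SD, n = 4 each; log2 change of -0.30, adjusted p of 0.000439 by edgeR with Benjamini-Hochberg adjustment). The transgelin Tagln2 fell by 0.18, the skeletal actin Acta1 by 0.28 and the tropomodulin Tmod2 by 0.24 (log2). The median of this list was -0.01, the same as over all genes.

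The genes upstream of the programme showed no common direction. Of 15 genes of the MRTF, SRF and RhoA pathway, 4 fell and 1 rose, with a median log2 change of -0.03. For this list and the next, the shares over all genes tested were 14.5% lower and 14% higher. Rhob, an inducible small GTPase, had 197 ± 5.91 CPM in Scx-deleted and 268 ± 28.2 CPM in Scx-positive libraries (SD, n = 4 each; log2 change of -0.44, adjusted p of 5.19e-05 by edgeR with Benjamini-Hochberg adjustment). Mkl1, which encodes MRTF-A, fell by 0.21, the formin gene Diaph3 by 0.29 and the kinase gene Rock2 by 0.16, while Rock1 rose by 0.21 (log2). Of 12 other cytoskeletal genes, mostly SRF targets, 3 fell and 1 rose, with a median of 0.01 and a mean of -0.04. Zyx, which encodes zyxin of stress fibres and focal adhesions, had 605 ± 39.7 CPM in Scx-deleted and 833 ± 101 CPM in Scx-positive libraries (log2 change of -0.46, adjusted p of 0.000156 by edgeR with Benjamini-Hochberg adjustment). Anln fell by 0.29 and Fhl1 by 0.12, and Fhl2 rose by 0.15 (log2).

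TGF-beta genes changed in both directions. Of 15 genes of TGF-beta input and other myofibroblast functions, 3 rose and 3 fell, with a median log2 change of -0.01. These shares lay near those of all genes tested, of which 14% were called higher and 14.5% lower. Tgfb2 had 10.4 ± 0.657 CPM in Scx-deleted and 19.2 ± 0.557 CPM in Scx-positive libraries (SD, n = 4 each; log2 change of -0.89, adjusted p of 3.07e-07 by edgeR with Benjamini-Hochberg adjustment). Tgfb1 had 37.8 ± 2.71 CPM in Scx-deleted and 25.7 ± 3.21 CPM in Scx-positive libraries (log2 change of 0.55, adjusted p of 0.000104 by edgeR with Benjamini-Hochberg adjustment). Smad2, which encodes a signal transducer of TGF-beta receptors, rose by 0.16, while the cadherin gene Cdh11 fell by 0.34 and Postn, periostin, by 0.25 (log2).

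**Figure D5:**
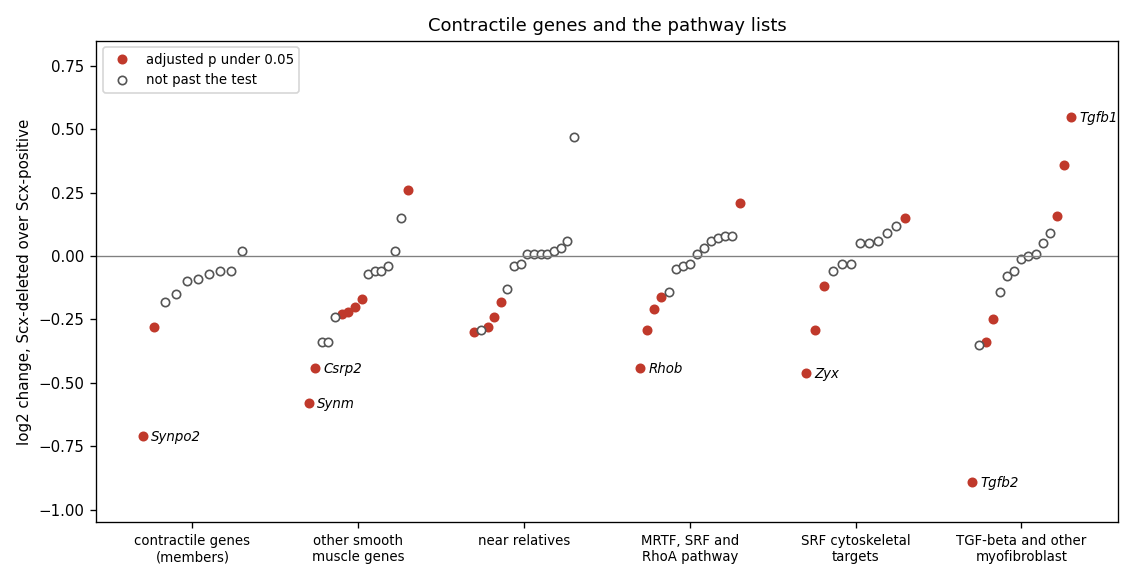
Log2 change, Scx-deleted over Scx-positive, of each tested gene in the contractile set and in 5 pathway lists; filled points passed an edgeR adjusted p of 0.05. In the contractile set 2 of 10 points are filled, both below 0. In the TGF-beta list of 15, 3 are filled above 0 and 3 below. Of all genes tested, 14% were called higher and 14.5% lower.

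Markers of other cells that express contractile genes were examined beside these results. The summed level of 6 smooth muscle markers was 292 to 350 CPM in Scx-deleted and 311 to 443 CPM in Scx-positive libraries, ranges that overlapped, and 1 of the 6, Smtn, fell. Des, Myocd and Kcnmb1 of that list had at most 1.45 CPM in any library. The sum of 8 pericyte markers was 953 to 974 CPM in Scx-deleted and 746 to 891 CPM in Scx-positive libraries. Most of it was Pdgfrb (means of 503 CPM in Scx-deleted and 428 CPM in Scx-positive libraries) and Cspg4 (365 and 271 CPM). The ranges of the sum did not overlap, but of the 7 markers tested only these 2 rose and 3 fell (Rgs5, Notch3 and Anpep). Skeletal muscle markers summed to 27.2 to 36.9 CPM in Scx-deleted and 34.9 to 41.7 CPM in Scx-positive libraries, nearly all of it Acta1, while Myh2, Myh4, Ckm and Tnni2 had at most 3 counts in any library. Macrophage markers summed to 8.09 to 10.45 CPM in Scx-deleted and 5.46 to 7.79 CPM in Scx-positive libraries, with Ptprc and Adgre1 at no more than 3 counts in any library, and Cd68 and Csf1r rose. Endothelial markers summed to 48.7 to 53.7 CPM in Scx-deleted and 68.1 to 86.1 CPM in Scx-positive libraries, with most of it Tek, which fell, while Kdr rose. Schwann cell markers summed to 22.6 to 27.8 CPM in Scx-deleted and 27.1 to 29.6 CPM in Scx-positive libraries, and S100b of that list fell. Epithelial markers summed to at most 0.450 CPM in Scx-deleted and 1.09 CPM in Scx-positive libraries. The part of smooth muscle cells or pericytes in the changes of Synpo2 and Cnn1 was not tested.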

How the data were processed

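Per the labels, total RNA of 8 libraries was sequenced, 4 Scx-deleted and 4 Scx-positive, and genotype set the groups. The submitters' processing notes name STAR, DESeq2, FastQC and the build mm10. The counter, strand setting and tool roles were not given in the sources used here. The authors deposited raw counts per gene, which fed every test. Rows that name no gene were left out, and that for reads in no feature held 7.44% to 8.67% of counts. The authors' deposited comparison table holds a normalized mean count (a signal), log2 fold changes with their standard errors and test statistics (scores) and p-values, per the file headers. Its direction was read from the sign of Scx, and 3 of its columns were not used.

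Counts were tested with edgeR 4.0.16 in R 4.3.3: filterByExpr (minimum count of 10), TMM factors, quasi-likelihood fits with no term beside group, and Benjamini-Hochberg adjustment over 13125 genes at a threshold of 0.05. The common biological coefficient of variation was 5.50%. The range of depth in each group is in the opening. Likeness used log2 CPM (prior count of 2) minus the group mean in genes of at least 10 CPM, to which Synpo2, below that level, was added as a member. Positions and exon lengths came from GENCODE on GRCm38. The fit was checked on simulated counts. Alternatives tried were upper-quartile and RLE scaling, no filter or 5 CPM in 4 libraries, DESeq2 1.42.0, limma-voom (limma 3.58.1), a replicate block, each library left out, and thresholds of 0.01 and 0.1, with a correction for GC content and exon length added after seeing the data. Genes named beside the 10 members were up to 4 called genes with the smallest p from each pathway list, genes at 0 counts, the 3 most like Acta2 and Tagln, and Scx. Smtn, Csrp1, Ppp1r12b, Rock2, Smad2, Postn, Myh11, Actg2, Actg1 and Actn1 were named after their values were seen. So were the marker genes named and the genes most like Cald1. Some genes under the rule are not reported here but stay in the counts. The members and lists were chosen with earlier results of these data known. Since the labels name no separate animals or cultures, p-values reflect only the spread among these libraries, and that may be technical. No pair of libraries of a group was closer than sampling noise.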

Additional observations from a re-analysis of the deposited data

How the results depend on the processing

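The median log2 change of the members stayed between -0.13 and -0.06 over 18 alternatives, and 0 members were called higher in each. Members called lower, 2 in the report, numbered 4 with upper-quartile scaling (Acta2 and Lmod1 added), 5 with the GC content and exon length correction (Acta2, Myl9 and Lmod1 added), 1 at an adjusted p of 0.01, 4 at 0.1, and 1 to 4 with a library left out. Calls over all genes moved too: 17.4% were lower with upper-quartile scaling, 18.1% with the correction, 8.71% at 0.01 and 18.6% at 0.1, against 14.5% in the report. DESeq2 and limma-voom called the same 2 genes as edgeR. Of 180 values for single members, 1 reversed: Cald1, at -0.005 with upper-quartile scaling. At an adjusted p of 0.01, 1191 genes were higher and 1143 lower, against 1842 and 1902 in the report. The median log2 change of all genes was -0.03 with upper-quartile scaling and 0 with RLE scaling, against -0.01 in the report.

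Replicate numbers 2, 3 and 5 occur in both groups, but same-numbered libraries had correlations of deviations of -0.06, 0.16 and 0.06, so the numbers were not taken to pair them. For numbers 3 and 5, but not 2, the same-numbered library was the closest one in the other group, a hint from the data and not the design. With the replicate block the same 2 members were called lower and 24.7% of genes were called, against 28.5% without it. The block gave 5 lower myofibroblast genes (3 in the report) and 0 higher cytoskeletal genes (1 in the report).

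With a library left out, the other smooth muscle genes had 3 to 8 lower (3 without Scx-deleted 5) and 0 to 2 higher. The near relatives had 2 to 4 lower and 0 to 1 higher. The MRTF, SRF and RhoA genes had 2 to 4 lower and 0 to 4 higher (4 without Scx-positive 5). The cytoskeletal genes had 1 to 2 higher and the myofibroblast genes 2 to 5 higher (5 without Scx-positive 5). Calls over all genes rose as well without Scx-positive 5, to 35.8% against 28.5% in the report, with 2409 higher against 1842. At an adjusted p of 0.01, the smooth muscle genes had 2 lower and 0 higher, the near relatives 2 lower, the pathway genes 2 lower and 0 higher, and the cytoskeletal genes 0 higher, against 2 at 0.1. The GC content and exon length correction gave 2 higher smooth muscle genes, 2 higher pathway genes, 4 higher cytoskeletal genes and 5 lower myofibroblast genes. It called 38.6% of all genes, with 2692 higher and 2372 lower. The causes were not tested. Synpo2, with 104 to 239 counts per library, is the member that depth limits most.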

Other observations

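Cald1, the member that followed the others least, had genes of cell division among its nearest. After group means were taken out, Ect2, a RhoA exchange factor of cytokinesis, had a correlation of 0.98 with Cald1 across the 8 libraries and Top2a, the topoisomerase of dividing cells, 0.97. Both fell in Scx-deleted cells, where Cald1 did not pass. Top2a had 98.3 ± 6.87 CPM in Scx-deleted and 140 ± 19.3 CPM in Scx-positive libraries (SD, n = 4 each; log2 change of -0.51), and Ect2 changed by -0.55. Synpo2 was nearest to Hadha and Adk (0.95 each) and Lmod1 to Ptx3 (0.95). These genes were named after their values were seen, and the points share libraries and scaling.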
